A study of Mus musculus with 6 samples.

Results

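The genes described here encode the enzymes that methylate lysine 9 of histone H3 (H3K9), namely Suv39h1, Suv39h2, Ehmt1, Ehmt2, Setdb1 and Setdb2, together with Gm14820, a noncoding gene that lies opposite Suv39h1. They were taken from the deposited count table by gene symbol, which gave 7 of its 57010 genes. Genes on the opposite strand that shared exonic bases with one of the enzymes were added from the positions in the table. This added 4 genes, Dclre1c and Gm13184 opposite Suv39h2, and Cers2 and Gm37500 opposite Setdb1, for 11 genes in all. Suv39h1 was chosen by its read counts, high in the ESC columns and 0 in the neuron columns, so its values and those of Gm14820 are a description and carry no test.

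The table holds RNA sequencing counts for 6 wild-type mouse samples in 2 groups of 3, and the sample titles name no perturbation in either group. The ESC group held embryonic stem cells in culture, labelled WT ESC. The neuron group held primary cortical neurons (labelled DIV7), dissected at embryonic day 16.5 and cultured over 7 days in vitro. The labels do not say whether replicates came from separate cultures or litters, so p-values measure the spread between these samples only. The library names of neuron replicates 2 and 3 hold the word empty, which the labels do not explain. The batch label of each sample reads ESC or DIV7 and divides the samples exactly as the groups do, so batch and group cannot be told apart.

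Methylation of H3K9 marks silent chromatin. The SUV39 enzymes Suv39h1 and Suv39h2 place the trimethyl mark at pericentromeric repeats, where HP1 proteins bind it. Ehmt1 (GLP) and Ehmt2 (G9a) form a heterodimer that places mono- and dimethyl marks in euchromatin. Setdb1, brought to chromatin by Trim28 and zinc finger proteins, silences endogenous retroviruses in embryonic stem cells, and Setdb2 is its less studied relative. In neurons the Ehmt pair is known for repressing non-neuronal genes.

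Total counts ran from 1368303 to 1775055 in ESC libraries and from 513425 to 624792 in neuron libraries. A gene with 3 counts stood at 2.26 to 2.90 CPM (counts scaled to library size, adjusted by the trimmed mean of M-values, TMM) in ESC and at 3.92 to 4.81 CPM in neuron libraries, and lower levels were not detectable at this depth. The strand setting used for counting is not given in the sources used here, so reads of a gene and of the gene opposite it cannot be told apart, and every value below is a count as the table assigned it. Of 12 cell type and proliferation markers with a gene opposite them, 9 had fewer counts over the 6 libraries than the opposite gene. Pou5f1, which defines pluripotent cells, had 51, 29 and 43 counts in ESC libraries against 18559, 13967 and 15649 for Gm19553. Over all 6 libraries the replication gene Pcna had 165 counts against 30657 for AV099323, and the neuronal gene Map2 had 37 against 2128 for Gm10558. Nefm, Csf1r and Cx3cr1 had more counts than the genes opposite them. Opposite Nefm, Nefl had 4, 6 and 4 counts in neuron libraries. The microglia marker Csf1r had 266, 258 and 204 counts in the ESC libraries, against 2, 1 and 2 for Hmgxb3 opposite it. These 3 markers therefore do not show which strand the reads came from. It was not tested whether the table assigned reads to the strand opposite to their transcript. If it did, each value printed for a gene, whether or not another gene is annotated opposite it, stands for RNA of the other strand, and the Suv39h1 counts in ESC would not be Suv39h1 mRNA. Among other markers, the neuronal gene Rbfox3 had 4, 5 and 2 counts in neuron libraries. The summed level of 10 pluripotency markers was 190 to 257 CPM in ESC and 4.47 to 9.14 CPM in neuron libraries. That of 11 neuronal markers was 207 to 265 CPM in ESC and 1080 to 1310 CPM in neuron libraries. Most of the neuron sum was Nefm, with 771, 837 and 699 counts there against 164, 168 and 139 in ESC. Of 5 neuronal markers with enough counts for the edgeR test, 4 passed, 2 in each direction, against 85.6% of all tested genes. The median log2 fold change of the 5 was −0.53. Without a count filter, 6 of the 11 passed as higher in neurons and 2 as lower, against 40.8% of all genes in either direction. The sum therefore does not show that these markers rose as a set. The vesicular glutamate transporter gene Slc17a7 had 64, 49 and 54 counts in the ESC libraries, against 2, 1 and 0 in neuron libraries. Astrocyte markers summed to 38.5 to 62.6 CPM in neuron libraries against 2.71 to 5.27 CPM in ESC, and 6 proliferation genes summed to 88 to 126 CPM in ESC against 14.4 to 20.9 CPM in neuron libraries. Microglia markers summed to 201 to 266 CPM in ESC and 128 to 142 CPM in neuron libraries, with Tmem119 at 0 in all 6, oligodendrocyte markers to 23.3 to 28.1 and 17.9 to 39.2 CPM, and fibroblast markers to 1.51 to 6.77 and 1.49 to 3.21 CPM. In bulk samples, fewer cells of a type and less RNA per cell cannot be told apart.

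The 3 enzyme genes with an exon opposite another gene were Suv39h1, Suv39h2 and Setdb1. Their promoters are shown because a gene on the opposite strand spans the annotated 5′ end at Suv39h1 and Setdb1. Each sequence is from RefSeq on build GRCm38.p6, minus strand, 250 bases before to 50 bases after an annotated start. Capitals mark the GC box GGGCGG and the CCAAT box CCAAT, read on both strands.
Suv39h1 start 1, chrX:8074711-8075010: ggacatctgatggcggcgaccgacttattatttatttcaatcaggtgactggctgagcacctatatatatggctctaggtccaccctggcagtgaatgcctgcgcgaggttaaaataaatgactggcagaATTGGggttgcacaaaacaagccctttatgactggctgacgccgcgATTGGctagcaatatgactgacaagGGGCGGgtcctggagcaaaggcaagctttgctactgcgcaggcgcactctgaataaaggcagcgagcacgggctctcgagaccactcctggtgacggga
Suv39h1 start 2, chrX:8074312-8074611: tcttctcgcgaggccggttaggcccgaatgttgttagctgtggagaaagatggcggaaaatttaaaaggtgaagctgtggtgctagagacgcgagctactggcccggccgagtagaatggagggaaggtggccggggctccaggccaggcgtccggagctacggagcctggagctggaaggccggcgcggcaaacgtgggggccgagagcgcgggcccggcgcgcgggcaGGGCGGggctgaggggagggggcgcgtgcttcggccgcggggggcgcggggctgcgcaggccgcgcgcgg
Suv39h2, chr2:3474937-3475236: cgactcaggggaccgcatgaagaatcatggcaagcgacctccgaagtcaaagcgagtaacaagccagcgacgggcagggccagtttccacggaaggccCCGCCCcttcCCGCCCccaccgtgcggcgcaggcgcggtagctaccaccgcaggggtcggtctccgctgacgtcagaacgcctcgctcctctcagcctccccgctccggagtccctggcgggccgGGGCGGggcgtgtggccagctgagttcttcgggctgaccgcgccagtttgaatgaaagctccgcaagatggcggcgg
Setdb1, chr3:95357153-95357452: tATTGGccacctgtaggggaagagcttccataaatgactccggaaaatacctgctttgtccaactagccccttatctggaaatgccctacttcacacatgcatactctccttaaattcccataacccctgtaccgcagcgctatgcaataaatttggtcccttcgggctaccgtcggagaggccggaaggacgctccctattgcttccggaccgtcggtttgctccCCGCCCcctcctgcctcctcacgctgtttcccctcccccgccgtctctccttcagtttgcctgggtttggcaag

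A promoter was found for 6 of the 7 listed genes. The GC box occurred 1 time in each Suv39h1 window, 3 times in the Suv39h2 window and 1 time in the Setdb1 window, against at least 1 match in 35.7% of 32851 promoters of this length. The CCAAT box occurred 2 times at Suv39h1 start 1 and 1 time at Setdb1, and it was matched in 37.4% of all promoters. The TATA box TATAAA, matched in 13.6% of all promoters, was in none of the 4 windows. CpG dinucleotides numbered 15 at Suv39h1 start 1, 37 at Suv39h1 start 2, 33 at Suv39h2 and 15 at Setdb1, against a median of 7 over all promoters. All 4 windows were thus above the median CpG number, and the second Suv39h1 start and Suv39h2 were above the 90th percentile, at 94.4% and 91.4%. These matches are descriptions of the letters in the windows only.

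In the table, Suv39h1 (ENSMUSG00000039231.19) lies on chromosome X from 7927410 to 7940999 on the minus strand, with 5270 exonic bases in 7 blocks. Gm14820 (ENSMUSG00000087193.9) lies on the plus strand from 7909182 to 7941112, with 2372 exonic bases in 9 blocks. The submitters' processing notes name builds GRCm39 and mm39. The genes share 908 exonic bases, which are 17.23% of Suv39h1 and 38.28% of Gm14820. Numbered from the 5′ end of Suv39h1, the shared bases are 186 in exon block 1, 122 in block 3 and 600 in block 4. Gm14820 ends 113 bases beyond the 5′ end of Suv39h1, so its last block lies opposite the first block and the start of that gene. The 3 most downstream blocks of Suv39h1 and its block 2 share no base with Gm14820.

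**Figure D1:**
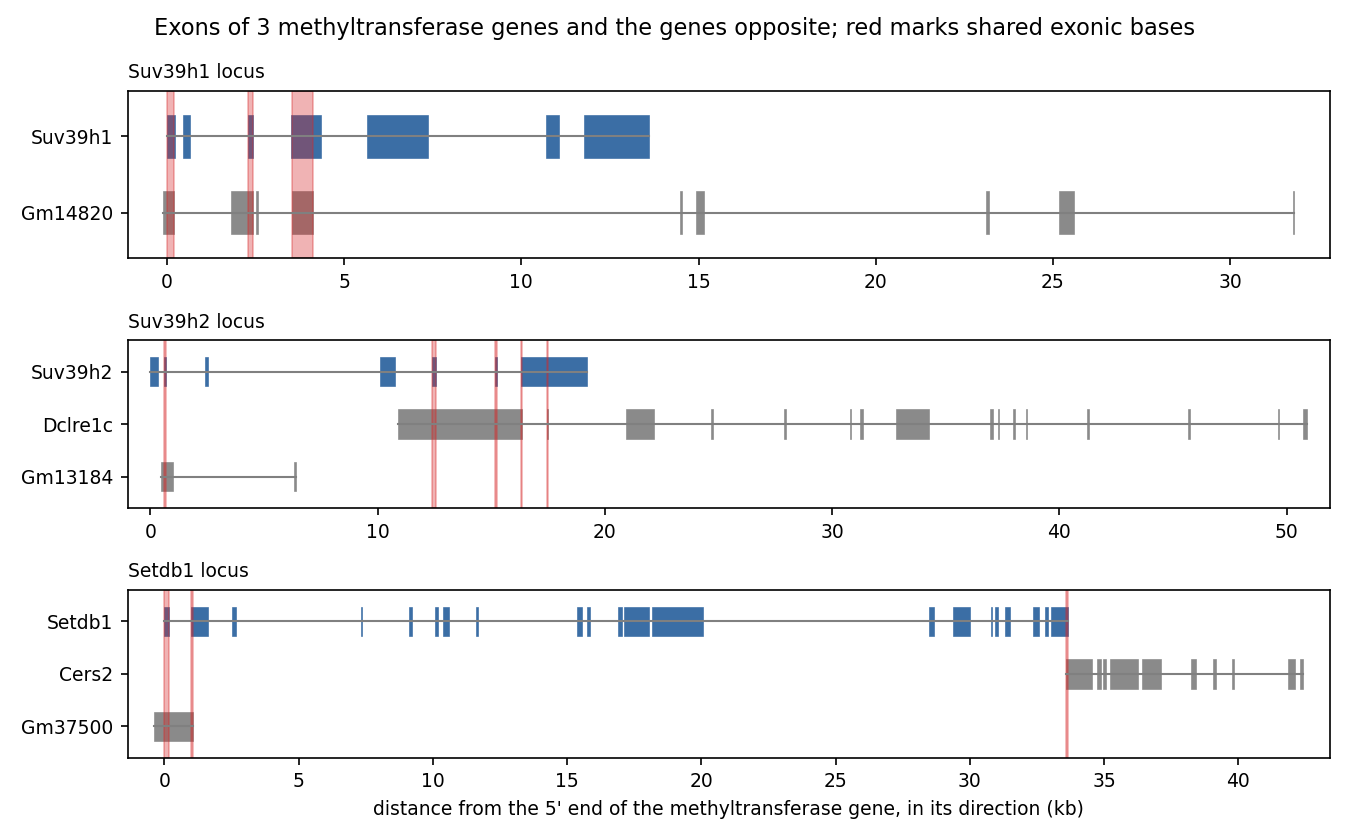
Exon blocks (boxes) of Suv39h1, Suv39h2 and Setdb1 in blue and of the genes on the opposite strand in grey, by distance in kb from the 5′ end of each methyltransferase gene, with shared exonic bases shaded red. Gm14820 shares 908 bases with the 5′ part of Suv39h1, Dclre1c shares 357 bases with the 3′ part of Suv39h2, and Cers2 shares 75 bases with the last block of Setdb1.

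As the table assigns the counts, Suv39h1 was the most abundant enzyme gene in the ESC libraries and had no count in any neuron library. It had 899, 766 and 756 counts in ESC replicates 1 to 3 and 0 counts in each neuron replicate. The ESC libraries were all high and close to each other, at 677, 741 and 684 CPM, and the groups did not overlap. The mean ESC level was 701 CPM ± 35.2 (SD, n = 3), and the level was at least 159-fold lower in neuron libraries, set against 3 counts per library. Among the 7150 genes with enough counts for a test, 173 had 0 counts in every neuron library, and Suv39h1 had the fourth highest ESC level of these (rank 4). It ranked 359 by ESC level among all genes of the table.

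Gm14820 had counts in every library of both groups. It had 141, 93 and 125 counts in the ESC libraries, against 152, 104 and 122 in neuron libraries. All 3 neuron libraries were above all 3 ESC libraries in CPM, at 183 CPM ± 24.3 against 103 CPM ± 11.9 (SD, n = 3), a ratio of 1.78. In ESC the counts of Suv39h1 were 6.38, 8.24 and 6.05 times those of Gm14820 in replicates 1 to 3. In neuron libraries the whole of the locus stood on Gm14820.

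Suv39h1 therefore held 87.1% ± 1.79 (SD, n = 3) of the counts of the locus in ESC. The shares were 86.4% in ESC replicate 1 (95% exact Clopper-Pearson interval 84.2% to 88.5%), 89.2% in replicate 2 (86.9% to 91.2%) and 85.8% in replicate 3 (83.3% to 88.1%). In neuron libraries it held 0 of 152, 0 of 104 and 0 of 122 locus counts. Set as 3 counts over the locus counts, the limits on these shares are 1.97%, 2.88% and 2.46%. The exact 95% intervals reach 2.398%, 3.485% and 2.978%. These shares do not depend on library scaling. Their separation follows from how Suv39h1 was chosen and adds no support. Intervals and limits cover counting error only. The 2 genes summed to 1040, 859 and 881 counts in the ESC libraries, against 152, 104 and 122 in neuron libraries. The summed locus stood at 804 CPM ± 24.8 in ESC and 183 CPM ± 24.3 in neuron libraries, a ratio of 4.39, so the difference of the sum was far smaller than that of Suv39h1 by itself. Which strand the ESC reads of this locus came from was not tested. With the strands exchanged, the counts listed for Gm14820, present in both groups, would be RNA of the Suv39h1 strand. They cover the whole of Gm14820, of which 38.28% lies in exons of Suv39h1, so they are not a count of Suv39h1.

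**Figure D2:**
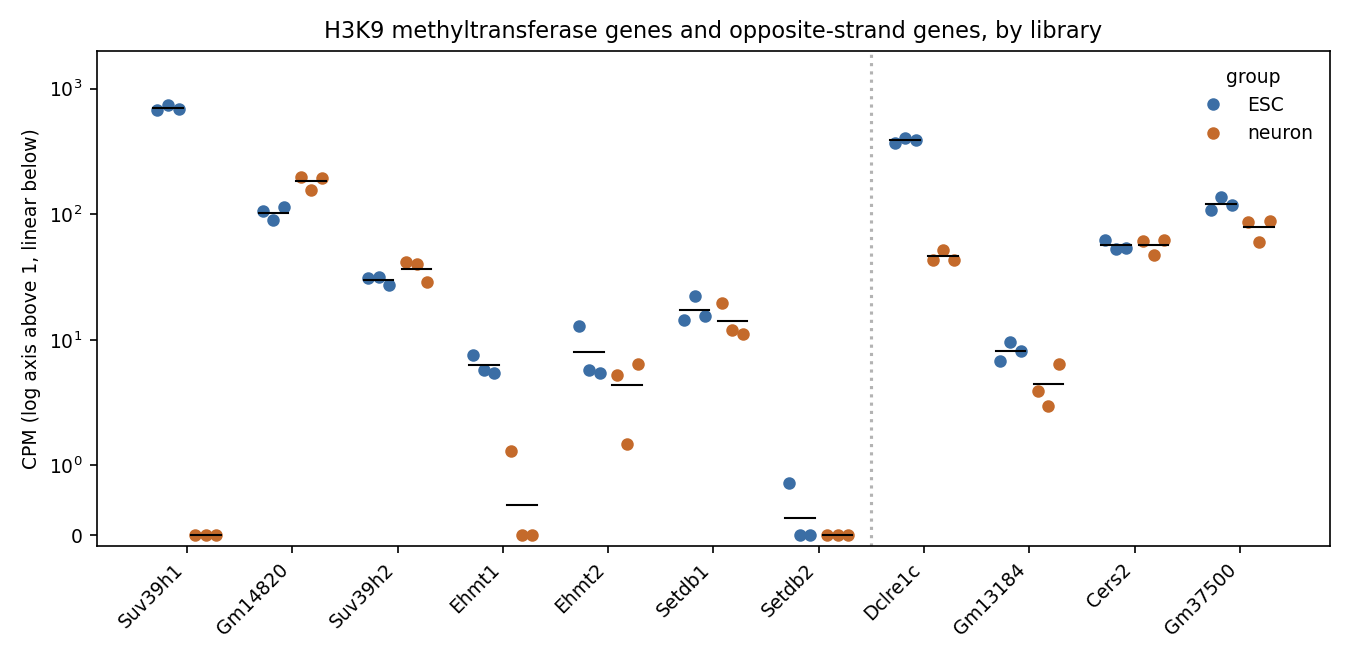
CPM of the 7 listed genes and, right of the dotted line, of the 4 genes added by shared exonic bases, on an axis that is logarithmic above 1 and linear below. Points are libraries and bars are group means. Suv39h1 is near 701 CPM in ESC and at 0 in neuron libraries, and Suv39h2, Ehmt2, Setdb1 and Cers2 overlap between the groups.

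The genes whose levels followed Suv39h1 most closely over the 6 libraries were Gm13061, 2410017I17Rik, 4930417O13Rik, Lrriq4 and Myadml2os. Likeness was the Euclidean distance between log2 CPM values with a prior count of 2, and the distances were 0.134, 0.191, 0.367, 0.796 and 0.923. Gm13061 had 969, 773 and 716 counts in the ESC libraries, against 0 in each neuron library, and 2410017I17Rik had 927, 686 and 809 in ESC and 0 in each neuron library. Each of the 5 has an exonic overlap with an opposite-strand gene, as Suv39h1 does and as 16.8% of all genes in the table do, and this difference was not tested. Gm13061 shares 234 bases with Lin28a, a let-7 regulator of pluripotent cells, which had 16, 9 and 10 counts in the ESC libraries, against 1, 1 and 0 in neuron libraries. With a prior count of 0.5, 3 of the 5 stayed among the nearest.

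Suv39h2 (ENSMUSG00000026646.17, chromosome 2, 3456852 to 3476068, minus strand, 4410 exonic bases) is the paralog of Suv39h1 and differs from it in these libraries in having counts in both groups. It had 41, 33 and 30 counts in the ESC libraries, against 32, 27 and 18 in neuron libraries. The groups overlapped, with 30.0 CPM ± 2.51 in ESC and 36.9 CPM ± 7.06 in neuron libraries (SD, n = 3). Its log2 fold change of neuron over ESC was 0.31 (SE 0.26, 95% interval −0.21 to 0.83, edgeR adjusted p = 0.267), within the spread of the replicates. Scaling to total counts instead of TMM moved it to 1.04 (edgeR adjusted p = 0.000512), and this scaling raised the median over all tested genes by 0.73, from 0.37 to 1.10. Suv39h2 lay just below that median with either scaling. It also passed when genes were kept at a mean of 10 or more counts (log2 fold change 0.67, edgeR adjusted p = 0.0187).

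The gene opposite the 3′ part of Suv39h2 changed strongly. Dclre1c encodes Artemis, a nuclease of DNA double-strand break repair and V(D)J recombination. It shares 357 exonic bases with Suv39h2, which are 8.10% of Suv39h2 and 3.83% of Dclre1c, and it covers exon blocks 5 and 6 of Suv39h2 in full. It had 493, 416 and 434 counts in the ESC libraries, against 33, 35 and 27 in neuron libraries. All ESC libraries were above all neuron libraries, and the level fell from 389 CPM ± 16.1 to 46.2 CPM ± 5.19 (log2 fold change −3.07 with SE 0.16, edgeR adjusted p = 1.16e-19). Gm13184 shares 83 bases, the whole of exon block 2 of Suv39h2, and had 9, 10 and 9 counts in the ESC libraries, against 3, 2 and 4 in neuron libraries, too few for the test.

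The share of Suv39h2 in the summed counts of its locus differed between the groups in the opposite direction to that of Suv39h1. These shares use counts over whole genes and do not compare strands over the shared bases. The share changed mainly with the whole-gene counts of Dclre1c, which fell while the level of Suv39h2 overlapped between the groups. Of the bases of Dclre1c, 3.83% are shared with Suv39h2. Suv39h2 held 7.55%, 7.19% and 6.34% of the counts of the 3 genes in ESC and 47.1%, 42.2% and 36.7% in neuron libraries. The groups did not overlap, at 7.03% ± 0.62 against 42.0% ± 5.16 (SD, n = 3), and a two-sided exact permutation test gave p = 0.1, its lower limit with 3 against 3 libraries, so this test could not pass 0.05. The sum over the 3 genes fell from 427 CPM ± 17.7 to 87.6 CPM ± 8.48 (log2 fold change −2.28 with SE 0.14, edgeR adjusted p = 4.9e-17), and it fell with total counts too (log2 fold change −1.55). The sum thus fell while Suv39h2 alone did not pass the test.

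**Figure D3:**
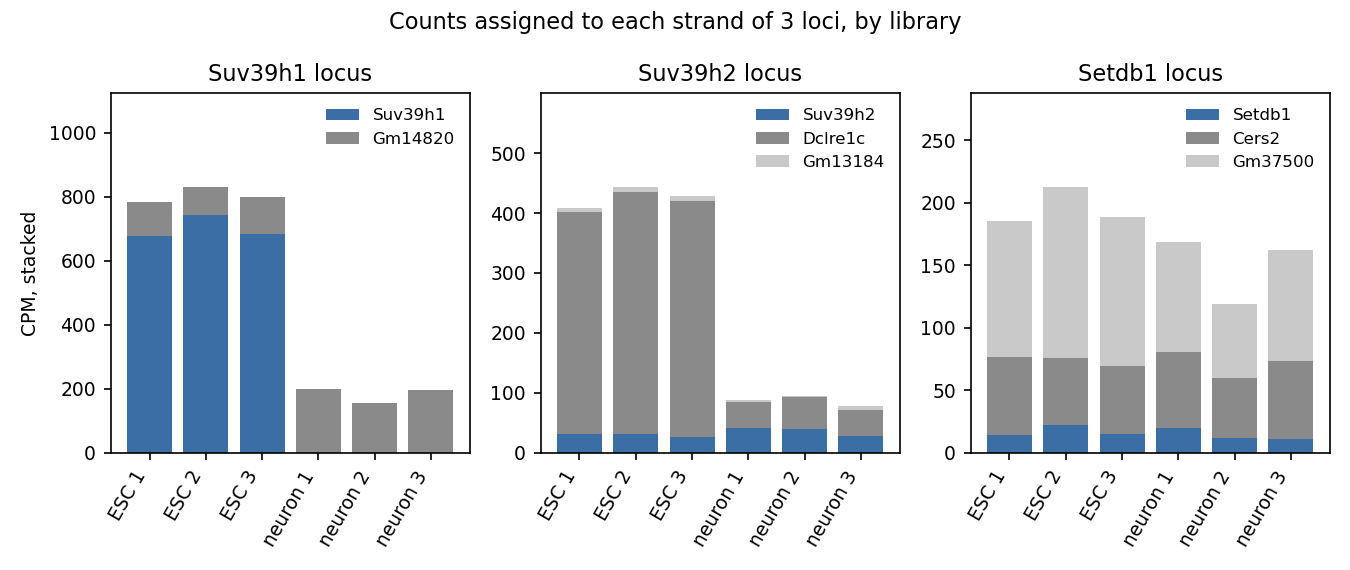
Stacked CPM of each methyltransferase gene (blue) and of the genes opposite it (greys), 1 bar per library, for the Suv39h1, Suv39h2 and Setdb1 loci, each with its own axis from 0. Suv39h1 makes up most of its locus in ESC and none of it in neuron libraries, while Suv39h2 and Setdb1 are the smaller part of theirs in all 6 libraries.

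Ehmt1 and Ehmt2, the subunits of the GLP and G9a dimer, had few counts and no gene sharing their exons on the opposite strand. Ehmt1 (ENSMUSG00000036893.18, chromosome 2, 24679940 to 24809626, minus strand, 8116 exonic bases) had 10, 6 and 6 counts in the ESC libraries, against 1, 0 and 0 in neuron libraries. Ehmt2 (ENSMUSG00000013787.16, chromosome 17, 35117445 to 35133028, plus strand, 5489 exonic bases) had 17, 6 and 6 counts in the ESC libraries, against 4, 1 and 4 in neuron libraries. Ehmt1 was higher in every ESC library than in any neuron library, and Ehmt2 overlapped between the groups. Neither passed the count filter. Without the filter, edgeR called Ehmt1 lower in neurons (adjusted p = 0.00204, at least 1.42-fold against 3 counts per library), and Ehmt2 had a log2 fold change of −1.06 (standard error 0.60, edgeR adjusted p = 0.149).

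Setdb1 (ENSMUSG00000015697.15, chromosome 3, 95230836 to 95264513, minus strand, 6853 exonic bases in 21 blocks) did not pass the test. It had 19, 23 and 17 counts in the ESC libraries, against 15, 8 and 7 in neuron libraries. The groups overlapped, at 17.3 CPM ± 4.31 in ESC and 14.2 CPM ± 4.64 in neuron libraries (log2 fold change −0.24 with SE 0.37, 95% interval −0.95 to 0.48, edgeR adjusted p = 0.546). With total counts the sign turned, to 0.49 (edgeR adjusted p = 0.216). Setdb2 (ENSMUSG00000071350.13, chromosome 14, 59639458 to 59678333, minus strand, 4047 exonic bases) had 1, 0 and 0 counts in the ESC libraries, against 0 in every neuron library, so it was not detectable at this depth.

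Setdb1 lies between 2 genes on the other strand. Gm37500 covers the first exon block of Setdb1 in full, sharing 249 bases in all, and runs 370 bases beyond its 5′ end. It had 144, 142 and 131 counts in the ESC libraries, against 67, 40 and 55 in neuron libraries, and fell from 121 CPM ± 14.7 to 78.4 CPM ± 16.3 (log2 fold change −0.62 with SE 0.19, edgeR adjusted p = 0.00276). With total counts Gm37500 did not pass and its log2 fold change was 0.11, and it did not pass either when genes were kept at a mean of 10 or more counts (−0.26). Cers2, a ceramide synthase gene that meets the 3′ end of Setdb1 over 75 bases, had 83, 55 and 60 counts in the ESC libraries, against 47, 32 and 39 in neuron libraries, and its levels were 56.7 CPM ± 5.06 and 57.2 CPM ± 8.24 (log2 fold change 0.01 with SE 0.22, 95% interval −0.42 to 0.44, edgeR adjusted p = 0.972).

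The share of Setdb1 in the summed whole-gene counts of its locus did not separate the groups. Setdb1 held 7.72%, 10.5% and 8.17% of the counts of the 3 genes in ESC and 11.6%, 10% and 6.93% in neuron libraries. The shares overlapped, at 8.78% ± 1.46 and 9.52% ± 2.39 (SD, n = 3, exact two-sided permutation p = 0.8). The summed locus gave a log2 fold change of −0.38 (standard error 0.16, edgeR adjusted p = 0.0243) with TMM and of 0.35 (edgeR adjusted p = 0.0336) with total counts, so its direction turned with the scaling.

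Per kilobase of exon, and on the strand the table assigns, the order of the enzyme genes in ESC was Suv39h1, Suv39h2, Setdb1, Ehmt2, Ehmt1 and Setdb2. The levels in RPKM, which is CPM on the TMM scale divided by exonic kilobases, were 133 ± 6.68, 6.80 ± 0.57, 2.53 ± 0.63, 1.46 ± 0.76, 0.77 ± 0.14 and 0.06 ± 0.11 (SD, n = 3). Suv39h1 was 19.6 times Suv39h2, and Suv39h2 was 2.69 times Setdb1, both without overlap between libraries. Setdb1 and Ehmt2 overlapped in their libraries (2.09 to 3.25 and 0.99 to 2.33 RPKM), and Ehmt1 reached 0.93 RPKM. In neuron libraries the order was Suv39h2 at 8.38 ± 1.60, Setdb1 at 2.08 ± 0.68, Ehmt2 at 0.80 ± 0.47 and Ehmt1 at 0.05 ± 0.09 RPKM, with Suv39h1 and Setdb2 at 0. No 2 neighbours among the first 4 overlapped in their libraries. The nearest libraries of Ehmt2 and Ehmt1 had 1 count each, so the order of these 2 genes is not resolved. Gm14820 stood at 43.5 ± 5.005 RPKM in ESC and 77.1 ± 10.2 RPKM in neuron libraries, above every enzyme gene but Suv39h1 in ESC. The other opposite-strand genes had ESC means of 41.7 RPKM for Dclre1c, 13.1 RPKM for Gm13184, 15.4 RPKM for Cers2 and 84.2 RPKM for Gm37500. The order of the enzymes, including the ratio of Suv39h1 to Suv39h2, therefore holds only for this strand assignment, and no order can be given for the other.

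Of 18 methyltransferase genes for other histone lysines, the highest mean level in ESC was that of the H3K79 enzyme gene Dot1l, at 6.17 RPKM, and the median over the 18 was 1.34 RPKM. Suv39h1 was the one enzyme gene far above this range. In neuron libraries the highest of the 18 was the H3K36 enzyme gene Nsd1 at 6.48 RPKM, and the median was 0.82 RPKM. The mean of Suv39h2 was above the highest of the 18 in both groups, but its libraries overlapped those of Dot1l in ESC and of Nsd1 in neurons.

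Across the 5 enzyme genes other than Suv39h1, 2 had enough counts for the test (Suv39h2 and Setdb1) and 0 passed an edgeR adjusted p of 0.05. The count at an unadjusted edgeR p under 0.05 was 0, and DESeq2 also called 0. Over all 7150 tested genes 85.6% passed, 38.6% lower and 47.0% higher in neurons. With total counts 1 of the 2 passed, Suv39h2, which was higher in neurons.

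The wider H3K9 pathway held genes that were higher and genes that were lower in neurons. Of 30 genes in 4 lists, 14 were tested and 12 passed, 4 higher and 8 lower, with a median log2 fold change of −0.83 against 0.37 over all tested genes. At 85.7%, that share is near the 85.6% of all genes. With total counts 9 passed, 4 higher and 5 lower, and with genes kept at a mean of 10 or more counts 7 of 11 passed, 1 higher and 6 lower. Without a filter all 30 were tested and 16 passed, 4 higher and 12 lower, where 40.8% of all genes passed. Their median log2 fold change was then −0.99, against −0.09 over all genes. With each gene replaced by the sum over its locus, 20 were tested and 17 passed, 7 higher and 10 lower, or 16, 8 each way, when total counts were used as well.

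Among the partners of the enzymes, 12 genes were listed, 5 were tested and all 5 were lower in neurons. Of all tested genes 38.6% were lower. With total counts 3 of the 5 passed. The median log2 fold change of the 5 was −1.86. Without a filter all 12 were tested and 8 passed, all 8 lower, against 40.8% of all genes passing in either direction. Wiz, a zinc finger protein that binds and stabilises the GLP and G9a dimer, had 233, 174 and 206 counts in the ESC libraries, against 1, 3 and 1 in neuron libraries. The bound was at least 40.2-fold lower in neurons (edgeR adjusted p = 2.85e-19). Uhrf1, which brings the maintenance DNA methyltransferase to replicating DNA through H3K9 methylation, had 53, 34 and 39 counts in the ESC libraries, against 2, 1 and 0 in neuron libraries, and was at least 8.19-fold lower (edgeR adjusted p = 5.06e-10). Both had no neuron library above 3 counts, so they met the count filter by their ESC counts alone and could enter only as lower. Wiz shares its 59 opposite-strand bases with a short unnamed gene that had 5, 0 and 0 counts in the ESC libraries, against 15, 16 and 14 in neuron libraries.

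The other partners belong to the silencing complexes around Setdb1. Mphosph8, the chromodomain subunit of the HUSH complex, fell from 108 CPM ± 14.01 to 29.2 CPM ± 6.57 (log2 fold change −1.86 with SE 0.23, edgeR adjusted p = 2.33e-09). Gm16973, which shares 384 bases with it on the opposite strand, fell as well, from 576, 456 and 493 counts in ESC to 43, 58 and 24 (log2 fold change −2.86). Trim28, the corepressor that recruits Setdb1, had 51, 45 and 49 counts in the ESC libraries, against 23, 15 and 4 in neuron libraries (log2 fold change −1.05 with SE 0.31, edgeR adjusted p = 0.00262). Fam208a (now Tasor), the scaffold of the HUSH complex, had 152, 119 and 132 counts in the ESC libraries, against 42, 73 and 45 in neuron libraries (log2 fold change −0.57 with SE 0.20, edgeR adjusted p = 0.0083). The gene opposite Fam208a, Ccdc66, shares 1763 bases with it and had 2186, 1883 and 1867 counts in ESC against 135, 199 and 131 in neuron libraries. With total counts neither Trim28 nor Fam208a passed, and Fam208a turned to 0.16. Fam208a also did not pass without neuron replicate 1 (edgeR adjusted p = 0.119).

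HP1 proteins, which bind methylated H3K9, were lower in neurons for 2 of 3 genes, all 3 being tested. Of all tested genes 38.6% were lower. Without a filter all 3 passed as lower. Cbx5 (HP1 alpha) had 56, 60 and 53 counts in the ESC libraries, against 1, 1 and 2 in neuron libraries, and was at least 11.2-fold lower (edgeR adjusted p = 1.39e-11). Cbx5 met the count filter by its ESC counts alone and could enter only as lower. Cbx3 (HP1 gamma) fell from 26.3 CPM ± 5.51 to 6.60 CPM ± 4.34 (log2 fold change −2.03 with SE 0.42, edgeR adjusted p = 3.48e-05). Cbx1 (HP1 beta) overlapped between the groups, with 49, 16 and 21 counts in the ESC libraries, against 11, 13 and 6 in neuron libraries (log2 fold change −0.74 with SE 0.37, edgeR adjusted p = 0.0613). Cbx1 passed when ESC replicate 2 (edgeR adjusted p = 0.00673), ESC replicate 3 (0.0227) or neuron replicate 2 (0.0233) was left out. None of the 3 shares exonic bases with an annotated opposite-strand gene. The fall of Cbx5, Cbx3 and Uhrf1 went with the lower summed level of the 6 proliferation genes given above, whose part in it was not tested.

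The H3K9 demethylases, which remove the mark, went both ways. Of 11 genes 5 were tested and 4 passed, 3 higher in neurons and 1 lower. Over all tested genes 85.6% passed, 47.0% higher and 38.6% lower. Without a filter all 11 were tested and 3 passed, 2 higher and 1 lower, against 40.8% of all genes. Jmjd1c and Kdm4b met the count filter by their neuron counts alone, so the filter favoured a rise. Jmjd1c rose from 3.68 CPM ± 0.81 to 15.5 CPM ± 5.91 (log2 fold change 1.97 with SE 0.46, edgeR adjusted p = 0.000156). It had 6, 3 and 4 counts in the ESC libraries, against 7, 11 and 13 in neuron libraries. Kdm4b rose from 2.88 CPM ± 0.15 to 10.2 CPM ± 0.47 (log2 fold change 1.77 with SE 0.47, edgeR adjusted p = 0.000808). Its counts were 4, 3 and 3 in ESC, near the detection limit, and 8, 7 and 6 in neuron libraries, so the size of its rise is uncertain. Only 3 of the fits with 1 library left out tested Kdm4b. Kdm3a had 21, 9 and 9 counts in the ESC libraries, against 10, 12 and 20 in neuron libraries, with overlapping groups (log2 fold change 0.87 with SE 0.39, edgeR adjusted p = 0.0356). It lost the call without ESC replicate 2 (edgeR adjusted p = 0.118), ESC replicate 3 (0.186), neuron replicate 2 (0.0554) or neuron replicate 3 (0.394). Kdm1a (LSD1), which also demethylates H3K4, fell from 33.2 CPM ± 4.48 to 17.5 CPM ± 4.27 (log2 fold change −0.93 with SE 0.30, edgeR adjusted p = 0.00536) but did not pass with total counts. Kdm3b did not pass (log2 fold change −0.49, edgeR adjusted p = 0.268).

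Of 4 other PR-domain genes, Prdm16 was the one tested. It had 4, 3 and 3 counts in the ESC libraries, against 13, 6 and 12 in neuron libraries and rose (log2 fold change 2.33 with SE 0.47, edgeR adjusted p = 2.28e-05). The ESC counts of Prdm16 were near the detection limit, so the size of its rise is uncertain. Prdm16 met the count filter by its neuron counts alone, which favoured a rise. B230104I21Rik, sharing 109 bases opposite Prdm16, rose too, from 6, 4 and 6 counts to 57, 38 and 48 (log2 fold change 3.87). Prdm8 had at most 4 counts in a library, while A730035I17Rik, which shares 1411 bases opposite it, had 1, 3 and 1 counts in the ESC libraries, against 267, 270 and 234 in neuron libraries. At both genes the opposite-strand gene thus held more counts in neuron libraries than the PR-domain gene.

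**Figure D4:**
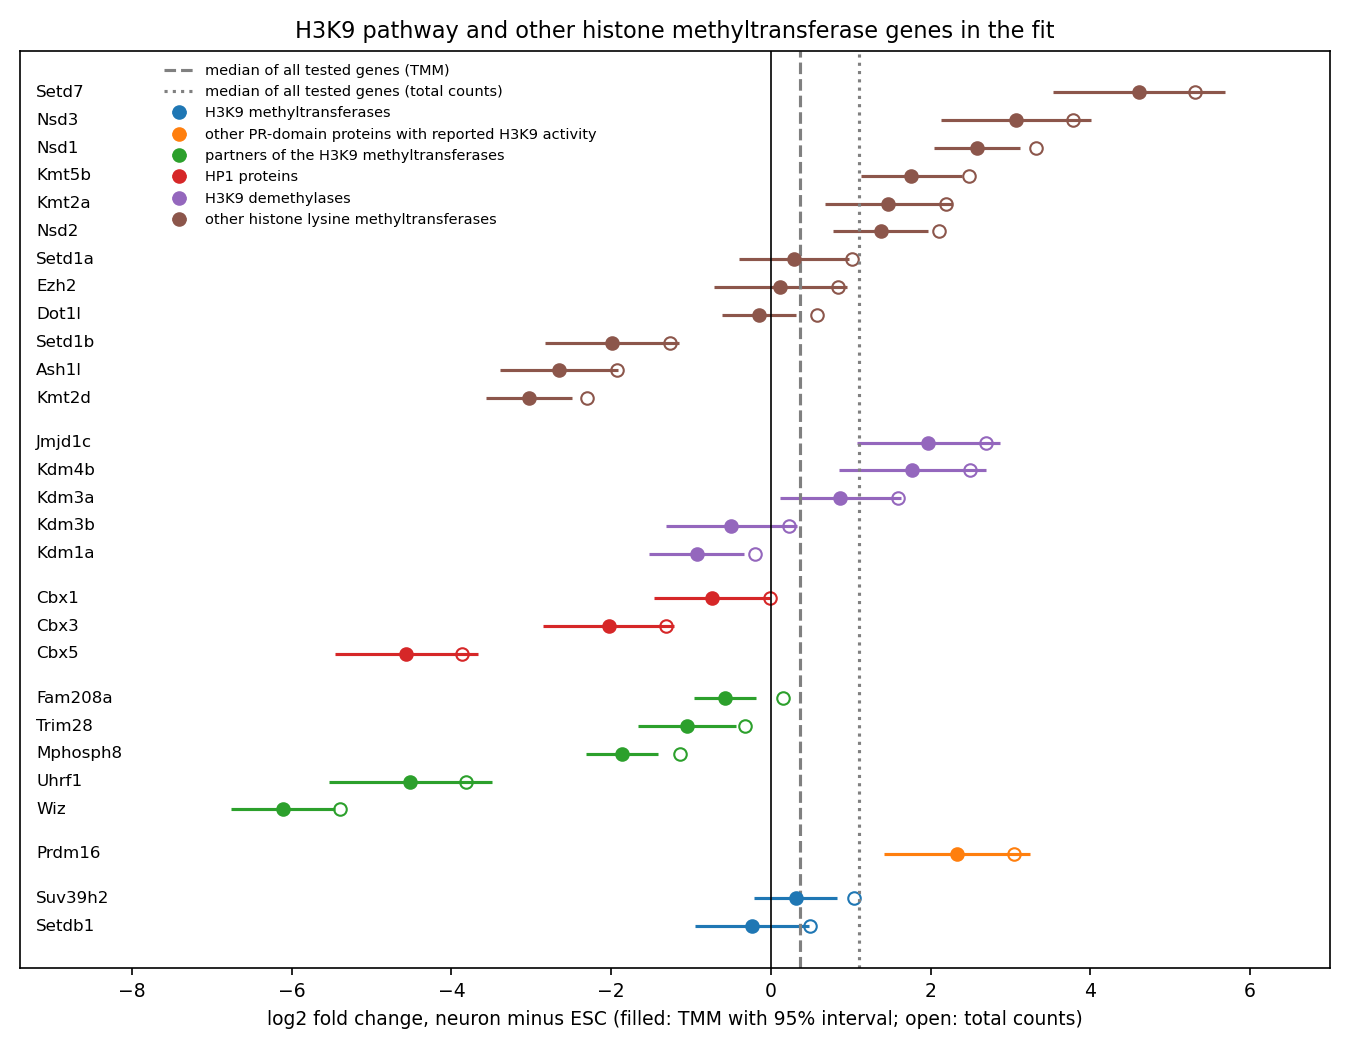
Fitted log2 fold changes of neuron over ESC for the tested genes of the H3K9 lists and for other histone lysine methyltransferases, filled with TMM scaling (bars are 95% intervals) and open with total counts. Dashed and dotted lines mark the median of all tested genes, 0.37 and 1.10. The partners and HP1 genes lie left of both lines. For Wiz, Uhrf1, Cbx5, Nsd3 and Setd7, which had at most 3 counts in each library of a group, the fitted size is uncertain.

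Methyltransferase genes for other histone lysines served as a comparison. Of 18 genes 12 were tested and 9 passed, 6 of them higher in neurons and 3 lower. Over all tested genes 85.6% passed, 47.0% higher and 38.6% lower. The median log2 fold change of the 12 was 0.83. Without a filter all 18 were tested and 13 passed, 6 higher and 7 lower, with a median of −0.173. In that fit 40.8% of all genes passed. With total counts 8 were higher and 3 lower. Without any 1 of the neuron libraries 16 genes were tested and 6 to 7 were lower. The H3K36 enzyme genes Nsd1 (35, 10 and 21 ESC counts and 110, 52 and 74 neuron counts, log2 fold change 2.59) and Nsd2 (1.38) and the H4K20 enzyme gene Kmt5b (1.76) rose. The H3K4 enzyme genes Kmt2d (123, 113 and 96 ESC counts and 9, 7 and 8 neuron counts, log2 fold change −3.03) and Setd1b (−1.98) fell, as did the H3K36 enzyme gene Ash1l (−2.65). Setd7 was at least 9.35-fold higher and Kmt2a rose (log2 fold change 1.47), and the genes opposite them, 5031434O11Rik and AC061963.1, rose as well (log2 fold changes 6.08 and 2.32). Other methyltransferases thus moved in both directions, and whether the H3K9 lists differ from them was not tested.

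Genes that H3K9 methylation is known to keep silent in embryonic stem cells include germline and 2-cell genes. Of 10 such genes, 7 had 0 counts in all 6 libraries, among them Dazl and Zscan4c, as did 49.4% of all genes in the table. The one tested, the meiotic gene Sycp3, had 12, 6 and 21 counts in the ESC libraries, against 36, 49 and 28 in neuron libraries and rose (log2 fold change 2.27 with SE 0.33, edgeR adjusted p = 8.67e-08). Sycp3 shares 660 exonic bases with Chpt1, read from the other strand, for which the table lists 41, 5 and 25 counts in the ESC libraries, against 2, 3 and 2 in neuron libraries.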

How the data were processed

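RNA was sequenced from 3 ESC and 3 neuron samples. The authors deposited raw counts per gene beside exon positions and exonic length. Column names carry STAR alignments, per the file headers, and the submitters' processing notes also name cutadapt and RSEM. The counting tool and its strand setting are not given in the sources used here. Columns were matched to samples by library name, and 0 were left unmapped. Symbols were found for 91.3% of genes by identifier, and no position was converted between builds. Exonic overlap was computed with bedtools 2.31.1, at a minimum of 1 base.

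The counts were analysed as deposited with edgeR 4.0.16 in R 4.3.3: filterByExpr (minimum count 10), TMM, robust quasi-likelihood test with all 6 samples and no covariate, Benjamini-Hochberg adjustment over 7150 genes, threshold 0.05. The standard error is the log2 fold change divided by the square root of F, and intervals are approximate. Folds against at most 3 counts in every library are bounds. The scripts were first tested on simulated data. Replicate pairs had a chi-square per degree of freedom of 1.31 to 4.16, so no library was a copy.

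Named genes were the members, the genes opposite them, the called genes of each list (at most the 6 most abundant), list genes with a tested gene opposite, and the 5 nearest in profile to Suv39h1. Some opposite genes and untested genes were named after their values were seen. The members and lists were chosen with earlier results of these data known. Alternatives were DESeq2 1.42.0 (size factors and Wald test), total counts, other filters, a replicate block, sums over each locus, a minimum overlap of 100 bases, and leaving out each replicate.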

Additional observations from a re-analysis of the deposited data

How the results depend on the processing

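With 1 library left out, the neuron minus ESC difference in the share of locus counts was −87.8 to −86.1 percentage points for Suv39h1 and 32.4 to 37.6 for Suv39h2. The range for Suv39h1 is set by the ESC libraries, since every neuron share is 0. Suv39h1 was chosen for this pattern, so its range adds no support. The share difference at Setdb1 ran from −0.318 (without neuron replicate 1) to 2.03 points, around a value of 0.736, and has no stable direction. Without a filter 11762 genes passed (28820 tested), and with 1 library left out 5430 to 7353.

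Of the 5 other enzyme genes, 1 passed with total counts, 1 without a filter (Ehmt1) and 1 under a filter on mean counts of 10 or more (Suv39h2, log2 fold change 0.67). When each gene was replaced by the sum over its locus, 2 passed, and 2 with that sum and total counts, which was added once the data had been seen. The sum that includes Dclre1c gave −2.28 for the Suv39h2 locus, where Suv39h2 alone gave 0.31. Total counts reversed Gm37500 to 0.11, and that filter gave it −0.26, not past the threshold. With 1 library left out 0 of the 5 passed. The pathway count was 7 of 11 tested under the same filter, 16 of 30 without a filter and 11 to 12 with 1 library left out. The comparison list of other methyltransferases, whose settings were chosen after the data were seen, had 3 genes lower in neurons, but 6 to 7 without any 1 neuron library, when 16 genes were tested. Of the genes nearest to Suv39h1, 3 remained with a prior count of 0.5. Apart from settings that change which genes or counts enter, the cause was not tested.

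With the replicate number as a block, 6088 genes, 0 of the 5 enzyme genes and 12 pathway genes passed. Same-numbered samples deviated together at r = −0.0223 to 0.0189, and 33.3% of samples correlated best with their own number, so shared numbers do not show pairing here. Depth limits Ehmt1, Ehmt2 and Setdb2 most.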
